A study of Homo sapiens with 4 samples.

Results

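Solute carriers are the membrane proteins that move sugars, amino acids, metals, vitamins, ions and nucleotides across the plasma membrane and across the membranes of organelles. The solute carriers described here were chosen by gene name and level: rows named SLC, a family number, A and a member number, or SLCO with its number and letter, without the mitochondrial SLC25A carriers, and with a mean level of at least 1 FPKM over 4 libraries. FPKM counts the fragments of a gene scaled to the length of its model and to the mapped fragments of the library. Of 20329 genes, 168 rows matched the name and 134 of these passed the level, against 13928 genes of any kind that passed it. The level chose the members, so it is given as a description only. The rule itself uses no difference between libraries, but the group was proposed with results of these data known. SLCO4A1 was singled out because its low level with knockdown was already known, and its values are given without a test.

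The 4 libraries came from BM1 (1833) and LM2 (4175), bone and lung metastasis derivatives of MDA-MB-231, a triple-negative human breast cancer line. All cells were grown in DMEM with serum and stably carried an shRNA delivered by a lentiviral vector. The controls, BM1 control and LM2 control, carried a non-specific shRNA, and BM1 knockdown and LM2 knockdown carried an shRNA against hnRNPM, a nuclear RNA-binding protein that takes part in splicing. The series asks how hnRNPM and ESRP1 share the control of alternative splicing in the epithelial-mesenchymal transition, while the values here are gene levels. There was 1 library per line and treatment, so a difference within a line compares 2 libraries and has no replicate check, and the labels name no separate cultures or second shRNA.

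HNRNPM itself was at 171 FPKM in the BM1 control against 28.4 in its knockdown, and at 132 FPKM in the LM2 control against 20.3, so its level went the way the labels say. In every sentence with a pair of values per line, the control comes first and the knockdown after it. The step between low values put the depth at about 22800000 to 41500000 fragments per library. VIM (1160 to 2350 FPKM), AXL, MSN and CD44 were high, as is known for this line. ESR1 and PGR were looked for but had no row among the genes kept, and ERBB2 was at 13.5 to 21.9 FPKM. Of the epithelial markers, CDH1 rose with knockdown, from 0.489 to 4.08 FPKM (BM1) and from 0.17 to 2.3 (LM2). CDH1 passed the level only through its knockdown libraries, so its rise is a description only. EPCAM (3.0 to 4.59 FPKM) and GATA3 (2.5 to 3.33 FPKM) were not called. Of 9 markers of leukocytes, endothelium and fibroblasts, 4 had values, and their summed level was 6.64 to 24.9 FPKM. CD68 made up most of that sum in the BM1 control (23.5 FPKM), and CD68 fell to 4.46 FPKM in the BM1 knockdown and from 9.5 to 2.04 FPKM in LM2 (limma adjusted p 0.00969). The other markers were higher in both knockdowns. PDGFRB went from 1.37 to 3.24 FPKM (BM1) and from 0.699 to 2.93 (LM2), LUM from 0.0213 to 0.465 and from 0.0239 to 1.61, and VWF from 0.0434 to 0.163 and from 0.03 to 0.0663. The part of these markers in the results was not tested. In RNA from whole cultures, fewer cells that express a gene and less RNA per cell cannot be told apart.

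Carriers work by families. Uniporters and exchangers such as the SLC2 glucose carriers and the SLC7 amino acid carriers equilibrate or swap their substrates, whereas SLC1, SLC5 and SLC38 carriers draw on the sodium gradient that the Na+/K+ pump maintains. SLC7A5, SLC7A6 and SLC7A11 reach the cell surface only as heterodimers with SLC3A2, the CD98 heavy chain. Cancer cells are known for high levels of glucose, lactate and amino acid carriers, and many amino acid carriers are targets of ATF4, the transcription factor of the amino acid response.

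The letters of the amino acid response element, here taken as TGATGNAA on either strand, were looked for in the RefSeq promoter windows (build GRCh38.p14) of 250 bases before to 50 after each gene's start. A window was found for 103 of the 134 members, and 9 of them (8.74%) held the letters, against 4.46% of all genes with a window and 3.62% of all windows. Among amino acid carriers it was 6 of 21. Their sites are shown because the amino acid carriers hold both increases shared by the lines and changes of opposite sign. SLC7A11, SLCO4A1 and SLC2A3 had no window and were not searched, while SLC38A2 had a window without the letters. Capitals mark the match, in the direction of the gene.
SLC1A3: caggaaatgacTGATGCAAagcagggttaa
SLC1A4: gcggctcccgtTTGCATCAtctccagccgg
SLC1A5: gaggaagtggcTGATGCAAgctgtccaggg
SLC3A2: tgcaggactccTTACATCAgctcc
SLC7A1: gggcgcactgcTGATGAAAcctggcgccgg
SLC38A1: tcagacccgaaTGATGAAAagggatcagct
These lie at chr5:36596357-36596386 (plus strand), chr2:64989381-64989410 (plus), chr19:46784893-46784922 (minus), chr11:62881725-62881748 (plus), chr13:29595663-29595692 (minus) and chr12:46266502-46266531 (minus), in the order shown. The 6 genes did not share a direction. With knockdown, SLC1A3 was higher by 1.46 in BM1 and 1.67 in LM2 on the log2(FPKM + 1) scale, and SLC1A4 was lower by 0.61 and 1.11. A match is a description of these letters and not a binding site.

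The level of the carriers spanned from 1.05 to 269 FPKM on average over the libraries, with a median of 6.91. The 8 most abundant were SLC7A5 (269), SLC3A2 (251), SLC38A2 (150), SLC39A7 (127), SLC20A1 (122), SLC16A3 (115), SLC1A5 (111) and SLC2A1 (99.3 FPKM). They carry large neutral amino acids (SLC7A5 with SLC3A2), small neutral amino acids (SLC38A2), zinc out of the endoplasmic reticulum and Golgi (SLC39A7), phosphate (SLC20A1), lactate (SLC16A3), glutamine (SLC1A5) and glucose (SLC2A1). All members together took 0.515% and 0.678% of the FPKM sum in BM1, control before knockdown, and 0.655% and 0.598% in LM2. SLC16A1, the other main lactate carrier, was below the level filter and went from 0.141 to 0.238 FPKM (BM1) and from 0.443 to 0.547 (LM2). Just inside the filter were SLC43A2, SLC47A1 and SLC22A23 (means of 1.05, 1.11 and 1.22 FPKM), and just outside were SLC27A3, SLC22A3 and SLC4A4 (0.999, 0.886 and 0.825 FPKM).

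**Figure D1:**
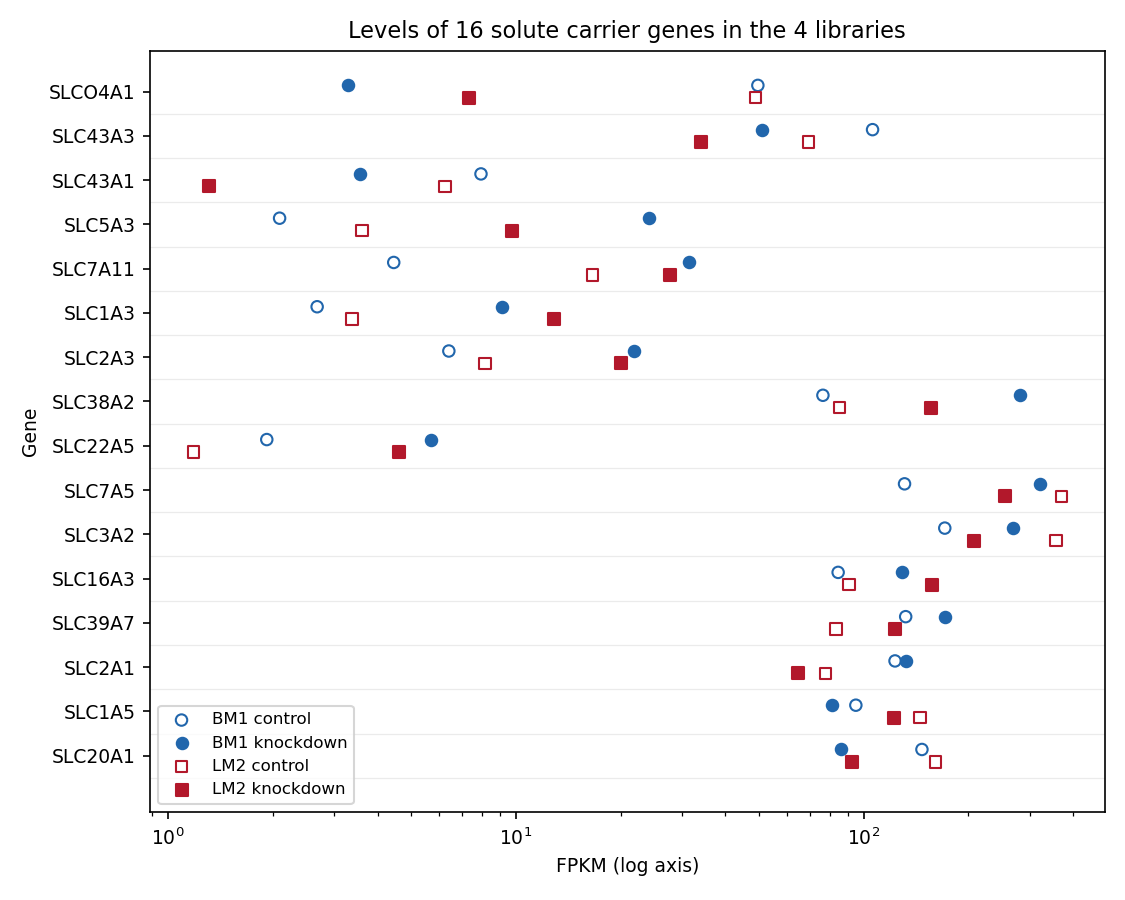
FPKM on a log axis for 16 solute carrier genes in the 4 libraries, with circles for BM1, squares for LM2, open symbols for controls and filled symbols for knockdowns, 1 point per library. The filled symbols of SLCO4A1 (3.28 and 7.33 FPKM) lie far to the left of its open symbols (49.6 and 48.9 FPKM), and those of SLC1A3, SLC2A3, SLC5A3 and SLC22A5 lie to the right of both controls.

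The first question was how the carriers differed with hnRNPM knockdown. SLCO4A1, SLC43A1 and SLC43A3 were lower in both lines, and SLC5A3, SLC1A3, SLC2A3, SLC38A2, SLC22A5 and SLC7A11 were higher in both lines. Across the members the changes were otherwise mixed: 55 were higher in both lines, 39 were lower in both, and 40 had opposite signs. Over all genes, 50.3% were higher in BM1, 46.5% were higher in LM2 and 30.9% had opposite signs. The shares of all genes higher or lower in both lines were not counted. Nothing is therefore read from such counts, here or in the groups of carriers below. The median change was 0.20 in BM1 and -0.03 in LM2 on the log2(FPKM + 1) scale, beside medians of 0.005 and -0.04 over all 13928 genes.

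SLCO4A1 (ENSG00000101187.15, chromosome 20, 61273797 to 61317137, plus strand, GRCh37 per the submitters' processing notes) encodes an organic anion transporter known to take up thyroid hormones and prostaglandins. Its level was 49.6 FPKM in the BM1 control against 3.28 in its knockdown, and 48.9 FPKM in the LM2 control against 7.33 in its knockdown. The controls of the lines lay close together, and both knockdowns were far below them, with 6.61% of the control level left in BM1 and 15% in LM2. The mean change of -3.07 on the log2(FPKM + 1) scale was the lowest of all members. SLCO4A1-AS1, a listed gene that overlaps SLCO4A1 on the opposite strand, was also lower and went from 43.4 to 8.36 FPKM (BM1) and from 67.2 to 23.1 (LM2). No source used here says whether counting used the strand, so fragments of these neighbours cannot be told apart. The other SLCO genes that passed the level had smaller changes. SLCO3A1 went from 1.16 to 0.621 FPKM (BM1) and from 7.27 to 7.61 (LM2). SLCO1B3 went from 6.83 to 6.34 FPKM (BM1) and from 6.89 to 3.96 (LM2).

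Across all genes, limma on log2(FPKM + 1) with terms for line and treatment called 762 genes at a Benjamini-Hochberg adjusted p of 0.05, a background of 5.47%. Of the members 7 (5.22%) were called, 5 higher (3.73%, background 2.71%) and 2 lower (1.49%, background 2.76%), so members were called about as often as genes in general. SLCO4A1 is among the lower ones and is not counted as a finding. The 5 called higher were SLC5A3, SLC1A3, SLC2A3, SLC38A2 and SLC22A5, and the other called lower was SLC43A1. The fit has 1 residual degree of freedom, which is how far the changes of the 2 lines differ. For each gene limma draws this toward a spread pooled over all genes. The p-values and standard errors rest on these and do not measure the spread between replicate cultures. On simulated data the share of false calls passed the nominal level when the spread of genes did not follow the model limma assumes. At an unadjusted p under 0.05 there were 40 members (29.9%, background 24.9%). The calls were 5 higher and 1 lower when the dependence on GC content and length was taken out. None of the members was called with a pseudocount of 0.1, quantile normalization, no level filter, no pairing by line or any library left out, where 8 to 39 members were at an unadjusted p under 0.05.

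**Figure D2:**
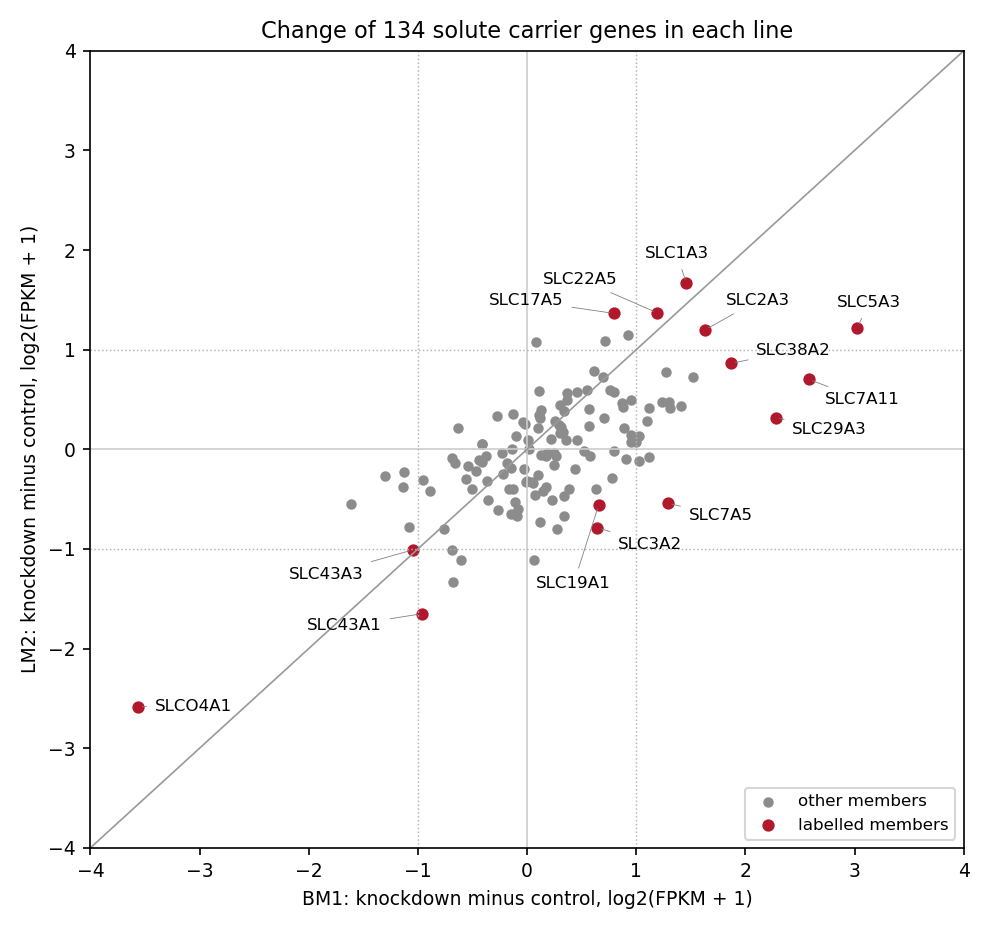
Knockdown minus control on the log2(FPKM + 1) scale in BM1 (x axis) and in LM2 (y axis), 1 point per member, with the 2-fold rule as dotted lines and the line of equal change drawn through 0. SLCO4A1 stands alone at the lower left (-3.56 and -2.58), SLC5A3 and SLC7A11 lie far to the right with smaller LM2 changes, and SLC7A5, SLC3A2 and SLC19A1 lie right of 0 in BM1 and below 0 in LM2.

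SLC5A3 (ENSG00000198743.5, chromosome 21, 35445870 to 35478559, plus strand), the sodium-coupled carrier of myo-inositol, an osmolyte, had the highest mean change of the members. Its level was 2.09 FPKM in the BM1 control against 24.1 in its knockdown, and 3.61 FPKM in the LM2 control against 9.71 in its knockdown. Both knockdowns were above both controls, and the linear ratio was 11.5 in BM1 and 2.69 in LM2. It rose by 2.12 ± 0.40 over the lines (log2, standard error, limma adjusted p 0.0233). SLC5A3 overlaps MRPS6 on the same strand. MRPS6 did not share the pattern and went from 58.3 to 37.2 FPKM (BM1) and from 34.3 to 34.7 (LM2). A further entry under the name SLC5A3 was below the level filter (at most 1.75 FPKM), so how fragments were divided among these models is uncertain.

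SLC1A3 (ENSG00000079215.13, chromosome 5, 36606457 to 36688436, plus strand), a sodium-coupled carrier of glutamate and aspartate, went from 2.68 to 9.12 FPKM (BM1) and from 3.38 to 12.9 (LM2). Its level was 3.40 times the control in BM1 and 3.82 times in LM2. It rose by 1.56 ± 0.25 (log2, standard error, limma adjusted p 0.0158). SLC2A3 (ENSG00000059804.15, chromosome 12, 8071826 to 8088871, minus strand), the high-affinity glucose carrier GLUT3, went from 6.41 to 21.9 FPKM (BM1) and from 8.14 to 20 (LM2). It rose by 1.42 ± 0.26 (limma adjusted p 0.0228), and its near-identical paralog SLC2A14 was below the level filter (at most 1.04 FPKM), so reads may be split between them. SLC22A5 (ENSG00000197375.12, chromosome 5, 131705444 to 131731306, plus strand), the plasma membrane carrier of carnitine, went from 1.92 to 5.68 FPKM (BM1) and from 1.18 to 4.62 (LM2). It rose by 1.28 ± 0.25 (limma adjusted p 0.0274) at levels where the log2(FPKM + 1) scale understates a change.

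SLC38A2 (ENSG00000134294.13, chromosome 12, 46751972 to 46766650, minus strand), the sodium-coupled carrier also called SNAT2, was already abundant in the controls. It went from 76.3 to 282 FPKM (BM1) and from 85.2 to 156 (LM2), both knockdowns above both controls. It rose by 1.37 ± 0.30 (log2, standard error, limma adjusted p 0.0396), and the adjusted p was 0.0589 with a pseudocount of 0.5 and 0.0678 with the GC and length trend removed. Over all 11 alternatives it ranged from 0.0312 to 0.815.

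On the lower side, SLC43A1 (ENSG00000149150.8, chromosome 11, 57252007 to 57283259, minus strand), a carrier of large neutral amino acids, went from 7.93 to 3.57 FPKM (BM1) and from 6.25 to 1.31 (LM2). It fell by 1.31 ± 0.28 (log2, standard error, limma adjusted p 0.0346), with an adjusted p of 0.0799 after removal of the GC and length trend and a range of 0.0281 to 0.759 over all alternatives. SLC43A3, of the same family but known to carry purine nucleobases, went from 106 to 50.9 FPKM (BM1) and from 69.4 to 34 (LM2). Less than 50% of the control level was left in each line (48.0% in BM1 and 49% in LM2), with a limma adjusted p of 0.0515 for a mean change of -1.02. It was called with size factors (adjusted p 0.0482), and it overlaps RP11-872D17.8 on the same strand, a gene at 0.786 to 2.61 FPKM. SLC43A2, the remaining member of that family, went from 0.691 to 0.819 FPKM (BM1) and from 0.876 to 1.82 (LM2).

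Counted within each line by a fixed rule of at least 2-fold, that is, a difference of at least 1 on the log2(FPKM + 1) scale, 20 members were higher and 7 lower in the BM1 knockdown (14.9% and 5.22%, against 10.1% and 6.2% of all genes tested). Either way this made 27 members (20.1% against 16.3%). In LM2, 8 were higher and 7 lower (5.97% and 5.22%, against 3.83% and 4.24%), or 15 either way (11.2% against 8.06%). In both lines together 4 members were at least 2-fold higher (SLC5A3, SLC1A3, SLC2A3 and SLC22A5, 2.99% against 1.92%) and 2 were at least 2-fold lower (SLCO4A1 and SLC43A3, 1.49% against 1.95%). The added 1 keeps low genes out: with a pseudocount of 0.1 there were 6 higher and 3 lower in both lines. On the FPKM themselves, SLC2A8 (2.22 and 2.44 times the control) and SLC12A8 (2.24 and 2.43 times) were above 2-fold in both lines, and SLC43A1 had 45% and 21% left. SLC12A8 passed the level only through its knockdown libraries, where it is high (controls 1.45 and 0.531 FPKM, knockdowns 3.25 and 1.29), so its rise is a description only. These shares were not tested against the background. The BM1 balance moved with base composition: the 20 higher members had a median GC content of 41.4% and the 7 lower ones 58.9%, against 51.5% for all members. With the trend of each library with GC content and length removed, an alternative chosen after seeing the data, 14 were higher and 2 lower in BM1, and 8 were higher and 5 lower in LM2.

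Substrate groups follow the family number, so a group can hold a gene with another substrate. SLC43A3, known to carry purine nucleobases, counts among the amino acid carriers. SLC5A6, a carrier of biotin and pantothenate, counts among the sugar carriers. Amino acid carriers form the largest group, with 26 members. Of these 11 were higher in both lines and 7 lower in both, 2 were called higher (SLC1A3 and SLC38A2) and 1 lower (SLC43A1), beside 2.71% and 2.76% of all genes, with nothing read from counts this small. The group median was 0.19 in BM1 and -0.11 in LM2. SLC7A11, the cystine and glutamate exchanger that feeds glutathione synthesis, showed how far the lines could differ. It went from 4.45 to 31.5 FPKM (BM1) and from 16.6 to 27.7 (LM2), so both knockdowns were above both controls, but the linear ratio was 7.08 in BM1 and 1.67 in LM2. Its mean change of 1.64 had a limma adjusted p of 0.0525. SLC7A11-AS1, on the opposite strand, went from 1.43 to 1.60 FPKM (BM1) and from 0.774 to 13.9 (LM2).

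SLC7A5 and SLC3A2, which form the large neutral amino acid exchanger, went in opposite directions in the lines. SLC7A5 went from 131 to 322 FPKM (BM1) and from 370 to 254 (LM2). SLC3A2 went from 171 to 268 FPKM (BM1) and from 357 to 207 (LM2). The subunits had the same order of libraries, with the BM1 control lowest, then the LM2 knockdown, the BM1 knockdown and the LM2 control. SLC7A6, which also pairs with SLC3A2, went from 8.80 to 25.0 FPKM (BM1) and from 6.65 to 9.30 (LM2). It was named after its values were seen. SLC7A5 overlaps RP4-536B24.2 on the opposite strand, which went from 0.102 to 0.162 FPKM (BM1) and from 28.5 to 18.3 (LM2), and its part in the SLC7A5 values was not tested. SLC1A5, the glutamine carrier, went from 94.9 to 81.3 FPKM (BM1) and from 145 to 122 (LM2).

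**Figure D3:**
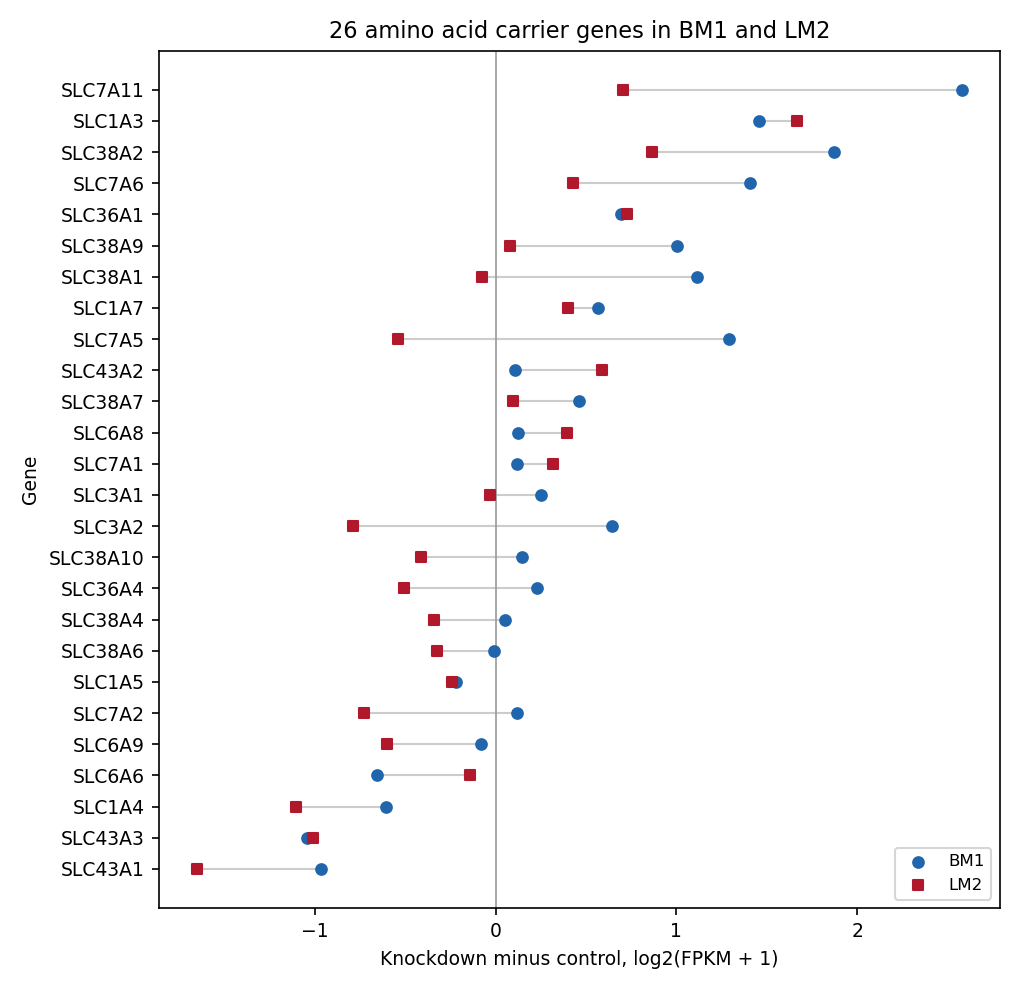
Knockdown minus control on the log2(FPKM + 1) scale for the 26 genes of the amino acid carrier families, ordered by the mean of the lines. A circle marks BM1 and a square LM2. The points of SLC1A3 and of SLC43A3 lie close together, while SLC7A11 (2.58 and 0.70), SLC7A5 (1.29 and -0.54) and SLC3A2 (0.64 and -0.79) have the points far apart.

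The genes of the amino acid response outside the carriers were lower on average, all 6 of 6, with a median of -0.49 in BM1 and -0.47 in LM2. The smallest mean change was that of DDIT3 (-0.17). Of all genes, 49.2% had a mean change above 0, and nothing is read from a count of 6 genes. ATF4 went from 228 to 139 FPKM (BM1) and from 239 to 153 (LM2). ASNS, which makes asparagine, went from 32.1 to 18.8 FPKM (BM1) and from 46 to 22.2 (LM2). None of the 6 was called by limma (adjusted p 0.0821 for ASNS and 0.144 for ATF4), beside 5.47% of all genes. Among the amino acid carriers, SLC7A11 and SLC38A2 were higher in both knockdowns, and SLC1A4, SLC1A5 and SLC43A1 were lower in both.

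Among sugar carriers, 14 passed the level, 6 were higher in both lines and 3 lower in both. The called ones were SLC2A3 and SLC5A3, beside 2.71% of all genes called higher, with nothing read from so small a count. SLC2A1, the main glucose carrier of many cancer cells, went from 123 to 132 FPKM (BM1) and from 77.6 to 64.5 (LM2). It therefore stayed within 0.26 of its control on the log2 scale in each line while SLC2A3 rose. Lactate export by SLC16A3 is the usual companion of high glucose use, and SLC16A3 went from 84.4 to 129 FPKM (BM1) and from 90.8 to 157 (LM2). Both knockdowns were above both controls, but the mean change of 0.70 was not called (limma adjusted p 0.136), and SLC16A3 overlaps other listed genes on both strands. SLC16A13, of the same family, went from 3.09 to 0.873 FPKM (BM1) and from 2.5 to 1.99 (LM2).

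**Figure D4:**
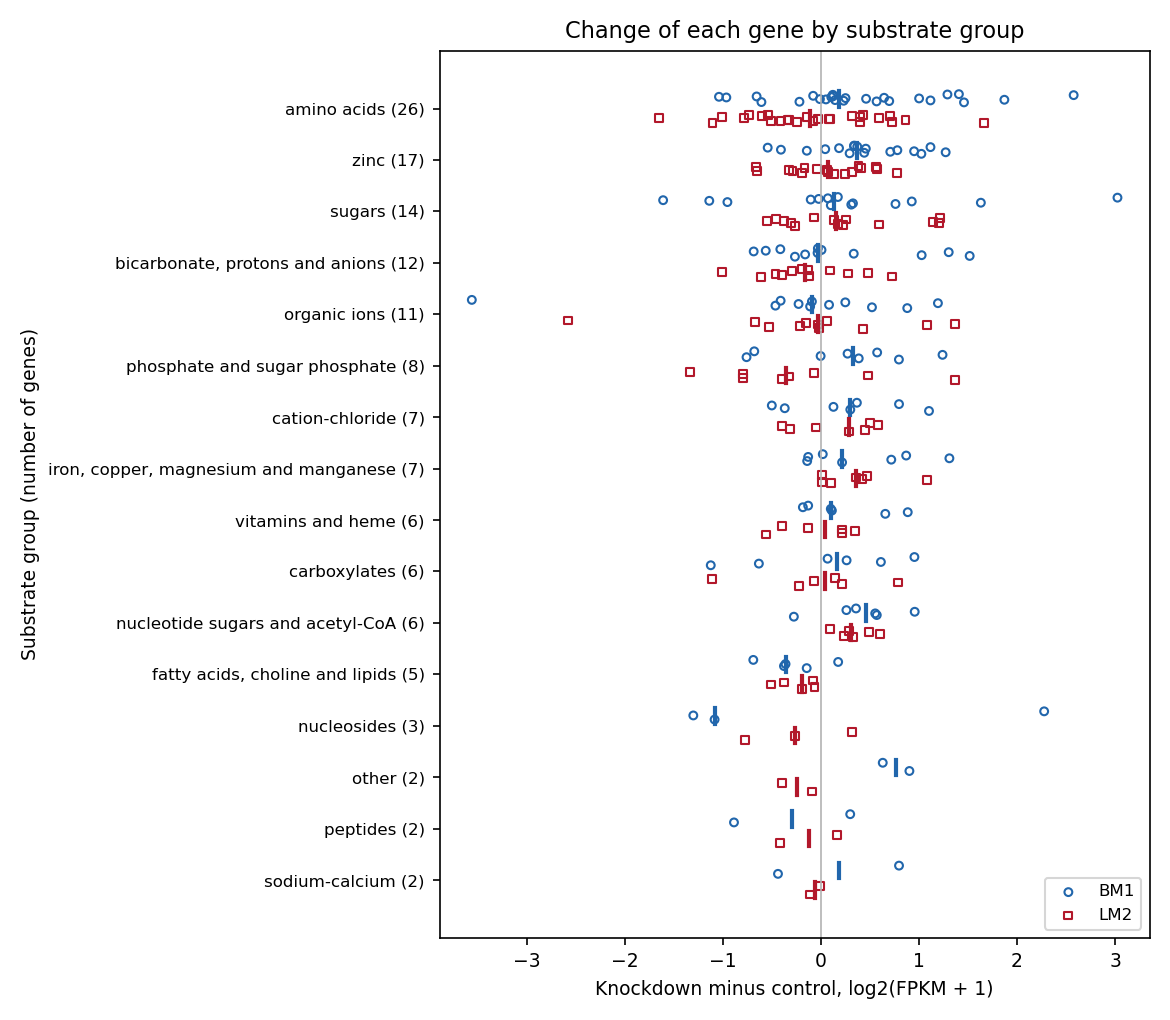
Knockdown minus control on the log2(FPKM + 1) scale for every member, by substrate group, with circles for BM1, squares for LM2 and a vertical bar at each group's median in that line. Groups spread on both sides of 0, the nucleotide sugar and acetyl-CoA group lies mostly to the right, and SLCO4A1 is the far left point of the organic ion group.

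Zinc carriers move zinc into the cytosol (SLC39) or out of it (SLC30). Of 17 members, 9 were higher in both lines and 2 lower in both. None was called by limma, beside 5.47% of all genes, and nothing is read from this in a group so small. The medians were 0.37 in BM1 and 0.07 in LM2. SLC30A6, which loads zinc into the Golgi, went from 8.37 to 21.6 FPKM (BM1) and from 7.17 to 13 (LM2) (limma adjusted p 0.0594 for a mean change of 1.03). SLC39A6 went from 15.6 to 35 FPKM (BM1) and from 18.0 to 24.2 (LM2), and SLC30A1, the plasma membrane exporter, went from 3.76 to 8.69 FPKM (BM1) and from 6.53 to 7.26 (LM2). All 3 were at least 2-fold higher in the BM1 knockdown and under 2-fold in LM2. With the GC and length trend removed the BM1 change was 0.69 for SLC30A6, 0.85 for SLC39A6 and 0.46 for SLC30A1, all under 2-fold.

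Of the 7 iron, copper, magnesium and manganese carriers, 5 were higher in both lines and none was lower in both. None was called for knockdown, beside 5.47% of all genes, with nothing read from so few genes. SLC31A2, which acts in copper handling in vesicles, went from 5.87 to 10.3 FPKM (BM1) and from 13.3 to 29.3 (LM2), with a limma adjusted p of 0.0795. SLC40A1, the iron exporter ferroportin, was low and went from 0.492 to 2.70 FPKM (BM1) and from 1.08 to 1.78 (LM2). It passed the level only through its knockdown libraries, so its rise is a description only. TFRC, the receptor that brings iron in with transferrin, went from 77.8 to 232 FPKM (BM1) and from 96.2 to 164 (LM2) (limma adjusted p 0.0514).

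Nucleoside carriers went in different directions. SLC29A1, the main equilibrative nucleoside carrier of the plasma membrane, went from 121 to 56.4 FPKM (BM1) and from 54.6 to 31.5 (LM2), a mean change of -0.93 that was not called (limma adjusted p 0.0708). SLC29A3, the related carrier of lysosomes, went from 3.22 to 19.5 FPKM (BM1) and from 1.84 to 2.55 (LM2). Its linear ratio of knockdown to control was 6.06 in BM1 and 1.39 in LM2, and its mean change was not called (adjusted p 0.105).

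Organelle carriers gave further examples above and below control. SLC17A5, which exports sialic acid from lysosomes, went from 8.56 to 15.6 FPKM (BM1) and from 6.62 to 18.6 (LM2) (limma adjusted p 0.0534). SLC37A4, the glucose 6-phosphate carrier of the endoplasmic reticulum, went from 21.8 to 13.2 FPKM (BM1) and from 23.3 to 8.62 (LM2) (adjusted p 0.0687). SLC26A11 went from 2.49 to 8.98 FPKM (BM1) and from 3.27 to 6.05 (LM2) (adjusted p 0.0575), and it overlaps SGSH on the opposite strand. All 3 changed the same way in both lines without passing the threshold. Among 6 nucleotide sugar and acetyl-CoA carriers 5 were higher in both lines. SLC35A3, which brings UDP-N-acetylglucosamine into the Golgi, went from 2.42 to 5.63 FPKM (BM1) and from 4.72 to 7.04 (LM2). Of the 18 SLC35 genes with the letters B to G, which the name rule leaves out, 1 was called higher (SLC35F5) and 1 lower (SLC35B1), beside 2.71% and 2.76% of all genes. SLC35B1 went from 45.8 to 17.2 FPKM (BM1) and from 38.4 to 14.4 (LM2).

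Ion carriers showed no called member for knockdown, beside 5.47% of all genes, and nothing is read from this in so few genes. SLC4A7, a sodium bicarbonate cotransporter, went from 8.36 to 22.1 FPKM (BM1) and from 12.7 to 18.0 (LM2) (limma adjusted p 0.106). SLC12A2, the sodium-potassium-chloride cotransporter, went from 3.84 to 9.39 FPKM (BM1) and from 5.66 to 7.14 (LM2). SLC20A1, the phosphate carrier, went from 147 to 86.2 FPKM (BM1) and from 161 to 92.4 (LM2), nearly the same share of control in each line (58.6% and 57.4%), with a limma adjusted p of 0.106. All 5 fatty acid, choline and lipid carriers that passed the level had a negative mean change, 4 of them in both lines, and none was called; SLC44A2 went from 87.3 to 53.7 FPKM (BM1) and from 58.9 to 55.5 (LM2).

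The smaller groups held no called member for knockdown, beside 5.47% of all genes, and nothing is read from this in groups so small. SLC19A2, a thiamine carrier, went from 1.98 to 4.50 FPKM (BM1) and from 5.05 to 6.02 (LM2), and SLC52A2, a riboflavin carrier, went from 56.8 to 51.7 FPKM (BM1) and from 40.2 to 30.3 (LM2). The peptide and histidine carrier SLC15A3 went from 2.67 to 0.982 FPKM (BM1) and from 3.18 to 2.12 (LM2), while SLC15A4 went from 11.4 to 14.3 FPKM (BM1) and from 22.8 to 25.7 (LM2). SLC18A2, the vesicular monoamine carrier, went from 1.10 to 2.92 FPKM (BM1) and from 1.35 to 1.20 (LM2).

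Of 10 partners and pumps related to the carriers, 1 was called with knockdown, beside 5.47% of all genes, with nothing read from a count this small. ATP1B1, the beta subunit of the Na+/K+ pump, went from 74.1 to 218 FPKM (BM1) and from 36 to 125 (LM2), and it rose by 1.66 ± 0.25 (log2, standard error, limma adjusted p 0.0137). BSG, the chaperone of the SLC16 lactate carriers, went from 303 to 251 FPKM (BM1) and from 440 to 293 (LM2). Among ABC transporters, the other large class of membrane transporters, 24 of 32 passed the level and 2 were called, ABCA1 and ABCC3, both higher, beside 5.47% of all genes called either way. ABCA1, the cholesterol exporter, went from 1.02 to 6.87 FPKM (BM1) and from 4.03 to 20.4 (LM2).

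The changes in BM1 and LM2, which share no library, correlated across the 134 members with Pearson 0.672 and Spearman 0.615, against 0.553 and 0.547 across all genes tested. These are descriptions across genes, which are not independent replicates and share their libraries. The 40 members with opposite signs were 29.9% of the members, beside 30.9% of all genes. They split unevenly, 31 higher with knockdown in BM1 but lower in LM2, and 9 the other way. The same split was not counted over all genes, so nothing about the carriers is read from it. SLC3A2, SLC19A1, SLC7A5 and SLC48A1 led the members higher in BM1 but lower in LM2. SLC33A1, SLC41A1 and SLC50A1 were among the leaders of the other order, with changes of at most 0.36 in size in either line. The difference between the lines' changes cannot be tested with 1 library per line and treatment.

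The second question was how the lines differ in their carriers. Among the members called higher in LM2 were SLCO3A1, SLC16A6, SLC19A1, SLC31A2, SLC35A2 and SLC9A7, and SLC4A11 and SLC1A7 were called lower. In all 9 members were called (6.72%), beside 4.35% of all genes called in the same limma fit (7 higher, 5.22% against 2.31%, and 2 lower, 1.49% against 2.04%). Of the 9, 3 (SLCO3A1, SLC16A6 and SLC1A7) passed the level of 1 FPKM only through the line in which they are high, so their differences are given as a description and the count of 9 supports nothing. The median member difference, LM2 minus BM1, was 0.19 between controls and near 0 (0.004) between knockdowns. This fit shares its libraries with the knockdown contrast. At an unadjusted p under 0.05 there were 39 members (29.1%, background 22.4%). The count of 9 was 6 with a pseudocount of 0.5 (4 higher, 2 lower), 4 with 0.1 (2 and 2), 3 under quantile normalization (1 and 2), and 0 without the level filter, without the treatment term or without any of the libraries, where 8 to 37 members were at an unadjusted p under 0.05.

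SLCO3A1, an organic anion transporter, stood at 1.16 and 0.621 FPKM (BM1) and at 7.27 and 7.61 (LM2), a mean difference of 2.17 (log2). SLC16A6 was close to silent in BM1 (0.180 and 0.236 FPKM) and at 5.85 and 2.16 FPKM in LM2, a mean difference of 1.95. For both genes both LM2 libraries were above both BM1 libraries.

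SLC19A1, the reduced folate carrier that also takes up antifolates, stood at 5.60 and 9.40 FPKM (BM1) and at 33.3 and 22.3 (LM2), higher by 1.77 ± 0.32 (limma adjusted p 0.0219). It overlaps COL18A1 on the opposite strand, which was also higher in LM2 (9.22 and 9.64 in BM1, 36.3 and 29.9 in LM2), and the part of the overlap was not tested. SLC31A2 and SLC35A2, the Golgi carrier of UDP-galactose, had adjusted p-values of 0.0353 and 0.0367. SLC35A2 stood at 4.72 and 7.39 FPKM (BM1) and at 11.9 and 18.5 (LM2). SLC9A7, a proton exchanger of organelles, stood at 3.80 and 2.60 FPKM (BM1) and at 8.37 and 7.58 (LM2) (adjusted p 0.0486, the closest to the threshold). SLC31A1, the main copper importer, stood at 12.4 and 11.1 FPKM (BM1) and at 23.3 and 23.4 (LM2) and was not called (adjusted p 0.0767).

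SLC4A11, a transporter of the bicarbonate family known from the corneal endothelium, stood at 11.9 and 15.3 FPKM (BM1) and at 2.79 and 1.75 (LM2). It was lower in LM2 with a difference of -2.17 ± 0.28 (log2, standard error, limma adjusted p 0.00531). SLC1A7, a glutamate carrier known from the retina, stood at 2.64 and 4.39 FPKM (BM1) and at 0.0856 and 0.433 (LM2), given as a description. SLC29A1, SLC9A5, SLC46A3, SLC2A1, SLC12A8 and SLC5A6 were also lower in LM2 in both treatments, with differences from -0.98 to -0.78, and were not called. Of these, SLC9A5, SLC46A3 and SLC12A8 passed the level of 1 FPKM on average only through BM1, where they are high. Their differences are given as a description. For SLC2A1 the LM2 libraries (77.6 and 64.5 FPKM) were both below the BM1 libraries (123 and 132 FPKM). SLC5A6, a carrier of biotin and pantothenate, stood at 18.9 and 21.4 FPKM (BM1) and at 11.6 and 11 (LM2).

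**Figure D5:**
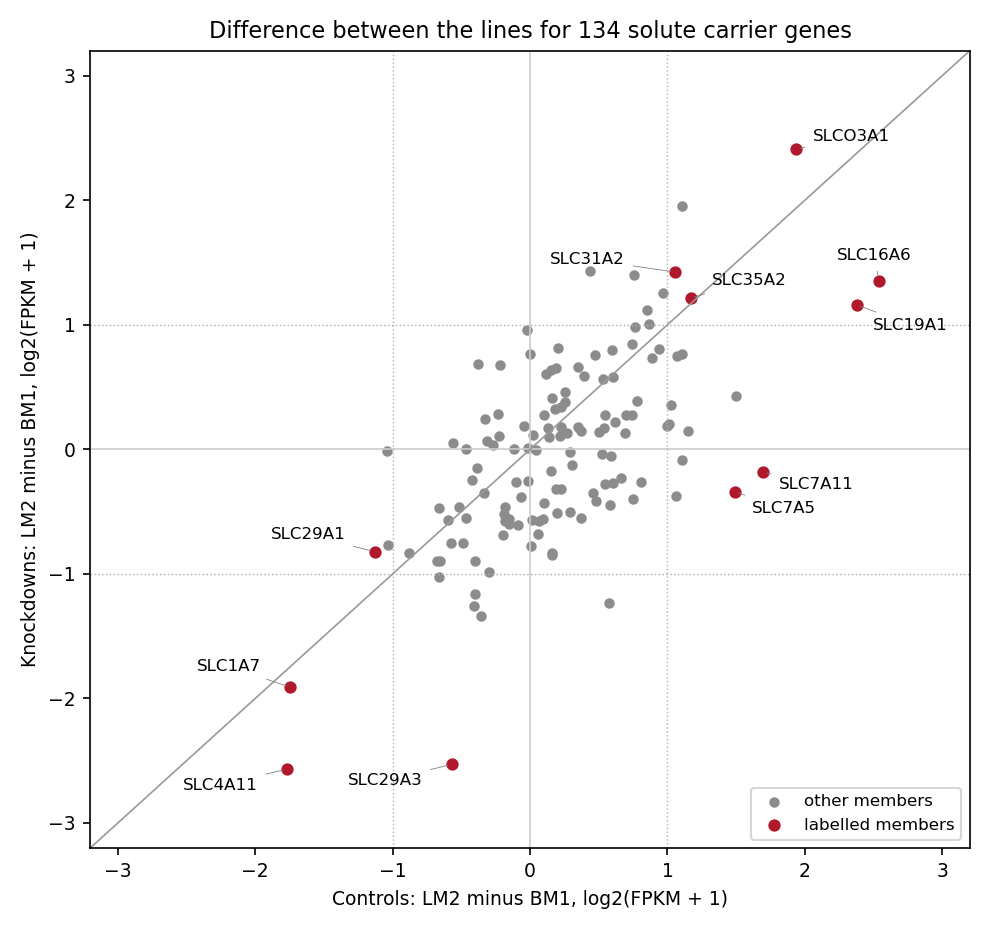
LM2 minus BM1 on the log2(FPKM + 1) scale between the controls (x axis) and between the knockdowns (y axis), 1 point per member, with the 2-fold rule as dotted lines and the line of equal difference. SLCO3A1 (1.94 and 2.41) and SLC4A11 (-1.77 and -2.57) lie at opposite ends near the line, while SLC7A11 (1.69 and -0.18), SLC7A5 (1.49 and -0.34) and SLC29A3 (-0.57 and -2.53) lie away from it.

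By the 2-fold rule, 16 members were higher and 5 lower in LM2 between controls (against 6.98% and 5.26% of all genes), which is 11.9% and 3.73%. Between knockdowns 11 were higher and 8 lower (8.21% and 5.97%, against 4.41% and 4.63%). In this way 6 members were higher in LM2 in both treatments (4.48%, against 1.98% of all genes) and 2 were lower (1.49%, against 1.69%). SLCO3A1 and SLC16A6 are among the 6 and SLC1A7 is among the 2. They passed the level only through the line in which they are high, as did 12 of the members in all. The counts between the lines are therefore a description and support nothing. Several carriers differed between the lines in 1 treatment only by this rule. SLC7A11 was 1.69 higher in the LM2 control than in the BM1 control and 0.18 lower between knockdowns, and SLC7A5 was 1.49 higher and 0.34 lower. SLC29A3 was 0.57 lower in LM2 between controls and 2.53 lower between knockdowns. These gaps between treatments are the same values as the unequal knockdown changes above and were not tested.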

How the data were processed

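Polyadenylated RNA was sequenced as stranded paired-end TruSeq libraries, per the labels' protocols. The authors deposited 1 table of FPKM values with 1 column per library. STAR 2.5.3a, Cuffdiff 2.2.1 and GRCh37 are named in the submitters' processing notes, while the annotation and the use of strand in counting are not stated there. Of 20369 rows, 40 with repeated gene IDs (3 IDs) were left out. The deposited FPKM values were analysed as log2(FPKM + 1), which understates changes of low genes.

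Depth was read from the step between low values in 1623 genes with 1 GENCODE 29 transcript: with the best step 36.1% to 43.6% of values were whole fragments (tolerance 0.02), while other steps gave 2.41% to 3.15%. Most values were not whole, so no count test was run, and intervals that need counts were not made. Genes with a mean of at least 1 FPKM were fitted in limma 3.58.1 (R 4.3.3), tested on simulated data, with terms for line and treatment and Benjamini-Hochberg adjustment over 13928 genes. Line pairs the libraries, since both come from the same cells (Pearson r 0.545 of their deviations across genes). An exact test on 2 pairs cannot give a two-sided p below 0.5. Members, groups, lists and the motif were chosen with earlier results of these data known. Named genes were SLCO4A1, members changed 2-fold in both lines, those called, those most opposite, those most different between lines, the most abundant, the largest of each substrate group, a fixed set of well-known carriers and those next to the level threshold. Alternatives were pseudocounts of 0.1 and 0.5, size factors, quantile normalization, no filter, no pairing, each library left out, a 1.5-fold rule and a level of 5 FPKM. Added after seeing the data were removal of the GC and length trend and leaving out members that overlap a gene on the same strand. Substrate groups follow family numbers. Some genes that meet these rules are not reported here by name.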

Additional observations from a re-analysis of the deposited data

Results flagged for a closer look

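Members that moved at least 0.5 on the log2(FPKM + 1) scale in opposite directions in the lines are listed here, and the difference between the lines was not tested. SLC7A5 was higher by 1.29 in the BM1 knockdown and had a change of -0.54 in LM2. SLC3A2, its partner, had changes of 0.64 and -0.79. SLC19A1 had changes of 0.66 and -0.56. In each of the 3 genes the BM1 control was the lowest of the 4 libraries and the LM2 control the highest.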

How the results depend on the processing

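The count of members called with knockdown (7) was 12 with size factors and 0 with a pseudocount of 0.1, quantile normalization, no filter and no replicate block, that is, without pairing by line. It was 0 to 0 when each library was left out, fitted without pairing. The count called between lines (9) was 3 with quantile normalization, 4 with a pseudocount of 0.1, 0 with no filter, 0 with no replicate block and 0 to 0 with a library left out. The 1.5-fold rule gave 57 members in BM1 and 34 in LM2 (27 and 15 by 2-fold), 14 higher and 8 lower in both lines, and 17 higher and 8 lower in LM2 in both treatments. Members 2-fold higher in LM2 in both treatments (6) were 11 with a pseudocount of 0.1, and those lower (2) were 5 with 0.1, 4 with 0.5 and 1 at a level of 5 FPKM. Those 2-fold lower with knockdown in both lines (2) were 1 with size factors, 1 with the GC and length trend removed and 1 without members overlapping on the same strand, and those higher (4) were 2 in the last setting. Members 2-fold changed in BM1 (27) were 16 with the trend removed. The other 54 alternative values of counts and medians stayed within 1.5 times the reported count or within the spread between lines or treatments. The mean SLCO4A1 change of both lines ranged from -3.55 to -2.59. With a library left out, the lone library of its arm is assumed to vary like the pair in the other arm.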
